A study of Mus musculus with 6 samples.

Results

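The C1q/TNF-related proteins (CTRPs, gene symbols C1qtnf) were described in cultured mouse fat cells that carried or lacked the labelled Ythdf1 knockout. The 7 genes C1qtnf1, C1qtnf2, C1qtnf3, C1qtnf5, C1qtnf6, C1qtnf7 and C1qtnf12 were taken by symbol from a count table of 53801 genes. The family was chosen by the low CPM of C1qtnf3 in the knockout, so the knockout and wild-type values of its members are given as a description and carry no test. Ythdf1 encodes a reader of m6A, a methyl group on adenosines of RNA. Stromal vascular fraction (SVF) cells, which hold the fat cell precursors, came from the inguinal white fat of mice labelled Ythdf1 knockout or wild type. Both groups had been through 4 days of adipogenic induction in culture before total RNA was taken, with 3 libraries a group, named biological replicates in the series' design. The labels do not give the strain, age or sex of the mice, the part of Ythdf1 that was removed, or how many animals stood behind a culture.

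CTRPs are secreted relatives of adiponectin. Each typically carries a signal peptide, a collagen-like stretch of Gly-X-Y repeats and a C-terminal globular C1q domain, and the proteins assemble into trimers and larger multimers through the globular and collagen-like parts. Several are made by adipocytes or by the stromal cells of fat and act on glucose and lipid metabolism in liver, muscle and fat itself. No receptor is agreed on for most of them.

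Library totals lay between 16619605 and 20089138 counts. Counts were scaled to CPM, a unit of reads relative to library size, with TMM factors, and 3 counts corresponded to 0.146 to 0.185 CPM. The targeted gene Ythdf1 had 754 to 892 counts in knockout and 1005 to 1114 in wild-type libraries, so its RNA was lower but present. Summed markers of adipocytes (Adipoq, Fabp4, Plin1, Cidec, Lipe and Cfd) ran from 10520 to 14909 CPM in knockout and from 1897 to 2905 CPM in wild type, so adipocyte RNA was present in every library. Summed markers of myofibroblasts or smooth muscle (Acta2, Tagln, Cnn1 and Myh11) ran from 86.2 to 110 CPM in knockout and from 607 to 918 CPM in wild type. Acta2 made up most of that sum, at 80.7 to 105 CPM in knockout and 584 to 881 CPM in wild type. Progenitor or fibroblast markers (Pdgfra, Ly6a, Dpp4, Pi16, Cd34 and Dcn) summed to 3605 to 3687 against 3727 to 3820 CPM, a sum carried by Dcn, Ly6a and Pdgfra, which did not pass. The other 3 of the 6 fell, by 1.26 (Dpp4), 1.68 (Pi16) and 0.72 (Cd34) on the log2 scale (edgeR adjusted p = 9e-06, 7e-05 and 0.00051). Of all tested genes 21.7% were called lower. Of 5 epithelial markers 4 were tested and 3 fell, among them Epcam from 3.83 ± 0.839 to 0.0677 ± 0.0737 CPM (edgeR adjusted p = 9.5e-06), while Krt19 did not pass (43.6 ± 6.41 against 41.1 ± 6.52 CPM). It made up most of their summed level of 38.2 to 50.6 against 48.6 to 62.8 CPM. Macrophage markers (Adgre1, Cd68, Csf1r, Ptprc, Cd14 and Mpeg1) summed to 140, 120 and 293 CPM in knockout replicates 1 to 3 and to 45.6 to 51.9 CPM in wild type. In bulk RNA, fewer cells of a type and less RNA per cell cannot be told apart, which holds for every value here.

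C1qtnf3, on whose low knockout level the choice of the family rests, lies on the plus strand of chromosome 15 at 10952332 to 10980150 in GRCm38. The RefSeq promoter window, which runs from 250 bases before the annotated start to 50 bases after it on GRCm38.p6, is shown for C1qtnf3 and for C1qtnf2 and C1qtnf7, the next largest knockout deficits in the family. The windows are chr15:10952082-10952381, chr11:43474056-43474355 and chr5:43515319-43515618 in that order, all on the plus strand. Capitals mark any match to 5 motifs searched on both strands. TATAAA is the core of the TATA box. CCAAT is the motif bound by NF-Y. The GC box was searched as GGGCGG. For AP-1 the letters were TGACTCA. For TEAD factors the core GGAATG was used, and no motif overlapped another in these windows.
C1qtnf3: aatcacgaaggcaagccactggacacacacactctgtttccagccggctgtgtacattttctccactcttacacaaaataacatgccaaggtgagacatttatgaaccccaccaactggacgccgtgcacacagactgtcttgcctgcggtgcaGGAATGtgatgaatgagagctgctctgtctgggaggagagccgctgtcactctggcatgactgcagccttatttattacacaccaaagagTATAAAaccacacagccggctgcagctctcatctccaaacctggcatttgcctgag
C1qtnf2: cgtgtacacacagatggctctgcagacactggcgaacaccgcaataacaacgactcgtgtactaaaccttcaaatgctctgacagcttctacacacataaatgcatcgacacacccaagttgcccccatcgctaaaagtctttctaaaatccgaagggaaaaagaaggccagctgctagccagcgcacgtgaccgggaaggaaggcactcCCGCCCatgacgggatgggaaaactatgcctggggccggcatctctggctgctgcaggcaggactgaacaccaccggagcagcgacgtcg
C1qtnf7: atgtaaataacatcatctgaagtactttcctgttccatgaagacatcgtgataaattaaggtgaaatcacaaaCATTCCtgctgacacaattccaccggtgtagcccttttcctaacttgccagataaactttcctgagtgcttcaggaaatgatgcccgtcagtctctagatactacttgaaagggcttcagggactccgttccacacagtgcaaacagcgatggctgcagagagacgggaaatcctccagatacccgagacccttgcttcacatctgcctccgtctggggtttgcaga

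Of the 3 windows, that of C1qtnf3 was the one with TATAAA, a sequence found in 13.6% of the 32851 promoter windows of the RefSeq table. Its first T lay 6 bases before the annotated transcript start at 10952332 and 31 bases before a further one at 10952357. GGAATG occurred in the C1qtnf3 window and, as CATTCC, in the C1qtnf7 window, and 14.7% of all windows held it. The C1qtnf2 window held a single GC box, read as CCGCCC, which 35.7% of windows held on one strand or the other. The C1qtnf6 window held 2 GC boxes, 1 CCAAT and 1 TGACTCA, the last found in 5.2% of windows. GC content was 50.7% for C1qtnf3, 55% for C1qtnf2, 46.7% for C1qtnf7 and 63.7% for C1qtnf6, with a median of 52.7% over all windows. These matches are letters in a window and say nothing of which factor was bound. Windows were matched for 5 of the 7 genes, and C1qtnf1 and C1qtnf12 were the others.

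The 6 members with counts were together about as abundant in both genotypes, but the make-up of their sum differed. Summed over the members, the level was 184 ± 6.34 CPM (SD, n = 3) in knockout libraries, against 191 ± 2.97 CPM in wild-type libraries, and the ranges of 176 to 188 and 188 to 194 CPM met. Per kilobase of exon the sums were 84.7 ± 5.39 and 77.7 ± 3.22 CPM per kb, again with ranges that overlapped. Within this nearly level sum C1qtnf12 and C1qtnf1 were higher in the knockout, and C1qtnf6, C1qtnf7, C1qtnf2 and C1qtnf3 were lower. The 3 knockout libraries lay wholly to one side of the 3 wild-type libraries for each of these 6 genes, which was so for 55.2% of all tested genes (27.9% higher in knockout and 27.3% lower). Likewise all 6 were called by edgeR at an adjusted p of 0.05, as were 44.3% of the 14816 genes tested (22.6% higher and 21.7% lower). Because the family was chosen in this contrast, nothing is read from those counts, and C1qtnf3 passed the filter on low counts through its wild-type libraries alone.

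**Figure D1:**
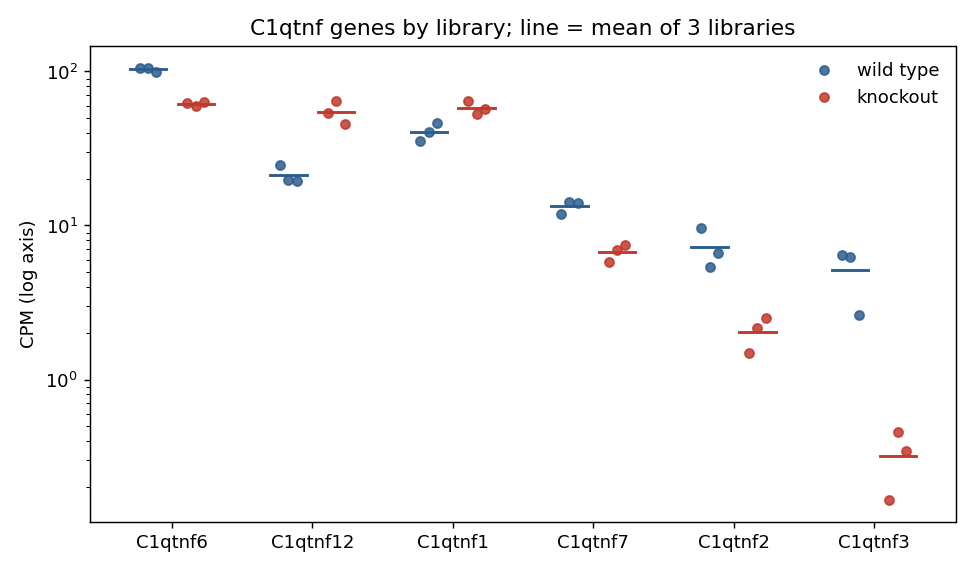
CPM (log axis) of the 6 C1qtnf genes with counts, for 3 wild-type (blue) and 3 knockout (red) libraries, with each line at a group's mean. C1qtnf12 and C1qtnf1 sit higher in knockout and the other 4 lower, with the widest gap for C1qtnf3 (5.11 against 0.32 CPM).

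C1qtnf12 encodes adipolin (CTRP12), an adipokine that improves insulin sensitivity in mice and is cleaved by the protease furin. Its level was 53.8, 64.3 and 45.6 CPM in replicates 1 to 3 of the knockout. Wild-type replicates 1 to 3 had 24.7, 19.8 and 19.4 CPM. Every knockout library was above every wild-type library, and the lowest knockout value was replicate 3. The log2 fold change, knockout over wild type, was 1.35 ± 0.14 (SE), or 2.55-fold. The adipocyte markers were higher in the same libraries (6 of 6 called higher, against 22.6% of all tested genes). The part of these markers in the result was not tested.

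C1qtnf1 encodes CTRP1, a secreted protein of fat stroma and vessels that inhibits collagen-induced platelet activation. The knockout libraries had 64.3, 53.3 and 57.2 CPM, the wild-type libraries 35.4, 40.2 and 46.5 CPM. The groups did not overlap, but the gap between the lowest knockout and the highest wild-type library was narrow. The log2 fold change was 0.52 ± 0.11, or 1.43-fold. The library names end in L0 for knockout replicate 2 and wild-type replicate 3 and in L1 for the rest, and the labels do not say what this stands for. Between the 2 L0 libraries the log2 ratio of C1qtnf1 was 0.20, and among the L1 libraries it was 0.69. With the suffix as a covariate in the fit of all libraries the log2 fold change of C1qtnf1 was 0.52. Its exons share 642 of 3131 bases with the antisense gene Gm11747, which had at most 6 counts in a library.

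C1qtnf6 encodes CTRP6, which inhibits the alternative pathway of complement. By mean CPM, which does not allow for gene length, it was the most abundant member in both genotypes. Its values were 62.6, 59.4 and 63.4 CPM (knockout) against 106, 106 and 99 CPM (wild type). In knockout C1qtnf1 was above it in replicate 1 and C1qtnf12 in replicate 2, both at 64.3 CPM. C1qtnf6 was also the least variable, with a coefficient of variation of 3.44% in knockout and 3.92% in wild type. All knockout libraries were below all wild-type libraries, with a log2 fold change of -0.75 ± 0.08. The L1 and L0 libraries taken apart gave -0.75 and -0.74.

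C1qtnf7 encodes CTRP7, whose loss in mice on a high-fat diet has been linked to better glucose handling. Knockout cells had 5.83, 6.88 and 7.5 CPM, against 11.9, 14.1 and 13.9 CPM in the wild-type cells. The groups were well apart, and the log2 fold change was -0.98 ± 0.15. The gene spans 103266 bases on chromosome 5, and the 3 annotated genes within that span (Gm15866, Gm43022 and Gm43023) share no exonic base with it and had at most 5 counts in a library.

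C1qtnf2 encodes CTRP2, one of the members closest to adiponectin in sequence. Its values were 1.48, 2.16 and 2.49 CPM in the knockout libraries, against 9.67, 5.38 and 6.63 CPM in wild-type ones. No knockout library reached a wild-type library, although the wild-type values differed 1.8-fold among themselves. The log2 fold change was -1.82 ± 0.27, a wild-type level 3.52-fold higher.

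C1qtnf3 encodes CTRP3, also called cartonectin or cartducin, a protein of cartilage and fat that lowers glucose output from the liver in mice. The knockout libraries held 3, 8 and 7 reads of it (0.165, 0.455 and 0.341 CPM). The wild-type libraries held 114, 101 and 46 reads (6.45, 6.24 and 2.63 CPM). The knockout libraries thus rested on few reads, and wild-type replicate 3 was lower than the other two wild-type libraries. The summed myofibroblast markers were also lowest in that wild-type library, at 607 CPM against 918 and 787 CPM. That sum was mostly Acta2, at 881, 757 and 584 CPM in wild-type replicates 1 to 3. Tagln, Cnn1 and Myh11 were lowest in wild-type replicate 3 too. Of the 4 markers 4 were called lower in knockout, as were 21.7% of all tested genes. The epithelial markers Epcam, Krt8 and Cdh1 and the progenitor markers Dpp4, Pi16 and Cd34 were also lower in knockout. Within wild type, Epcam (4.35, 4.26 and 2.86 CPM in replicates 1 to 3) and Cdh1 were lowest in replicate 3. Krt8 (5.94, 8.71 and 5.6 CPM) was in replicate 3 near its level in replicate 1. Dpp4, Pi16 and Cd34 were not lowest in replicate 3. Krt19 of the epithelial markers and Pdgfra, Ly6a and Dcn of the progenitor markers did not pass. The part of these markers in the result was not tested. The log2 fold change was -3.97 ± 0.46, with a 95% interval from -4.97 to -2.96, and 54 of the 14816 tested genes had a lower one. Pooled over libraries the counts were 18 and 261, a wild-type to knockout ratio of 15.9 with an exact 95% counting interval from 9.86 to 27.2. That interval covers counting error alone. The family was chosen by the low knockout level of C1qtnf3, and neither the intervals nor the rank allow for that choice. Between the L0 libraries, 1 of each genotype, the log2 ratio was -2.53, and among the L1 libraries it was -4.65. With the suffix as a covariate in the fit of all libraries the log2 fold change was -3.90.

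The defining markers of cartilage cells were at or near 0. Acan had 0 counts in every library, and Col2a1 and Col9a1 had at most 2 and 1 counts in any library. Sox9 and Comp, which fibroblasts also make, were at 29 ± 2.16 against 29.1 ± 5.19 CPM and at 12.2 ± 2.07 against 10.8 ± 3.34 CPM in knockout and wild type. Of the 7 chondrocyte markers listed 3 were tested. Among these Chad was called higher (2.55 ± 0.83 against 0.594 ± 0.352 CPM, edgeR adjusted p = 0.003), as were 22.6% of all tested genes. The summed level of the chondrocyte markers was 39.9 to 47.2 CPM in knockout and 31.9 to 47.8 in wild type. The next gene downstream on the same strand, Amacr, begins 1605 bases beyond the end of C1qtnf3 and was looked up after its values had been seen. It was at 9.47 ± 1.84 against 8.66 ± 1.33 CPM (knockout against wild type) (log2 fold change 0.12, 95% interval -0.28 to 0.52, edgeR adjusted p = 0.62).

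**Figure D2:**
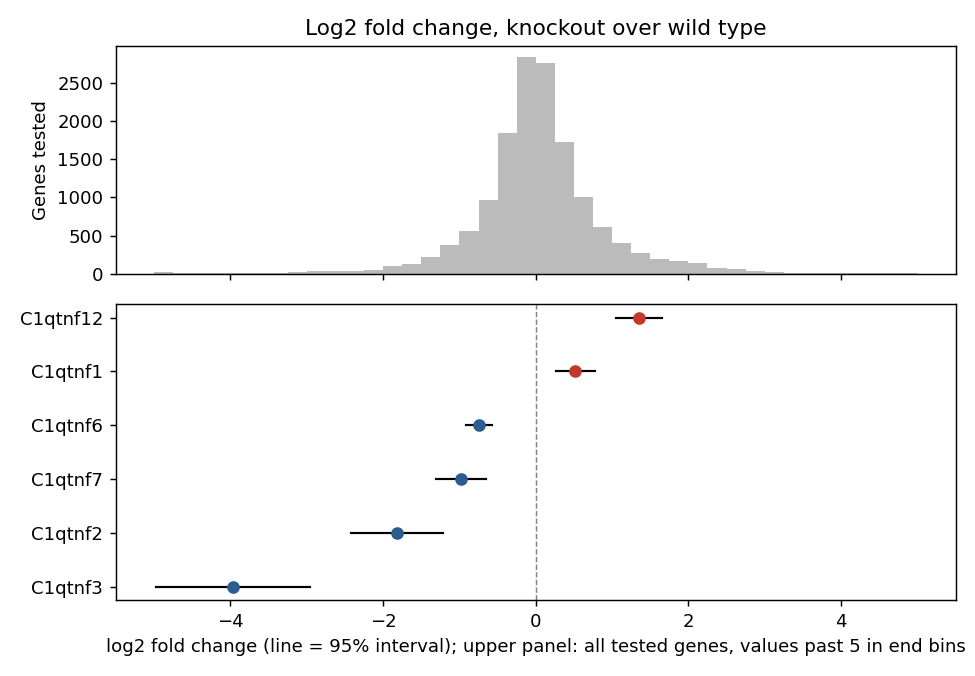
Upper panel, number of tested genes by log2 fold change (knockout over wild type) in steps of 0.25, and lower panel, the C1qtnf genes with their 95% intervals. C1qtnf12 (1.35) and C1qtnf1 (0.52) lie right of 0, and C1qtnf3 (-3.97) lies in the far left tail of all genes.

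C1qtnf5 had 0 counts in all 6 libraries and could not be read. The gene, mutated in a human late-onset retinal degeneration, lies on chromosome 9 at 44107245 to 44109187 inside the 3' part of Mfrp, with which it shares a transcript in mouse and human. All of its 1589 exonic bases lie in exons of Mfrp on the same strand. Of 126 protein-coding genes of the table whose exonic bases all lie in same-strand exons of another gene, 106 (84.1%) had 0 counts in every library. Among the other 21841 protein-coding genes 20.8% did. How reads that match a pair of genes were treated is not given in the sources used here, so the 0 is no measure of C1qtnf5 RNA and sets no upper limit. Mfrp itself had 2 to 3 counts in knockout and 6 to 7 in wild-type libraries and was not tested.

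Per kilobase of exon, which allows genes to be compared, the order of the members differed between the genotypes. In wild type C1qtnf6 led at 38.4 ± 1.5 CPM per kb, followed by C1qtnf12 at 15.6 ± 2.15, C1qtnf1 at 13 ± 1.78, C1qtnf2 at 5.52 ± 1.69, C1qtnf7 at 3.20 ± 0.291 and C1qtnf3 at 2 ± 0.84. The ranges of C1qtnf12 and C1qtnf1 overlapped, and those of the other neighbours did not. In knockout C1qtnf12 led at 39.9 ± 6.88 CPM per kb, followed by C1qtnf6 at 22.9 ± 0.786, C1qtnf1 at 18.6 ± 1.79, C1qtnf7 at 1.62 ± 0.204, C1qtnf2 at 1.56 ± 0.390 and C1qtnf3 at 0.125 ± 0.0571. There the ranges of C1qtnf7 and C1qtnf2 overlapped, and without knockout replicate 1 those genes changed places.

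The shift between the leading genes was seen in each library. C1qtnf6 made up 48.1%, 51.3% and 48.7% of the summed per-kb level in the wild-type libraries and 27%, 24.5% and 29.7% in the knockout libraries. C1qtnf12 made up 22.2%, 18.9% and 18.9% in wild type and 46%, 52.6% and 42.3% in knockout. The per-kb ratio of C1qtnf12 to C1qtnf6 within a library, which does not depend on the scaling between libraries, was 0.369 to 0.462 in wild type and 1.42 to 2.14 in knockout. C1qtnf3 made up 1.37% to 3.18% in wild type and 0.0753% to 0.198% in knockout.

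**Figure D3:**
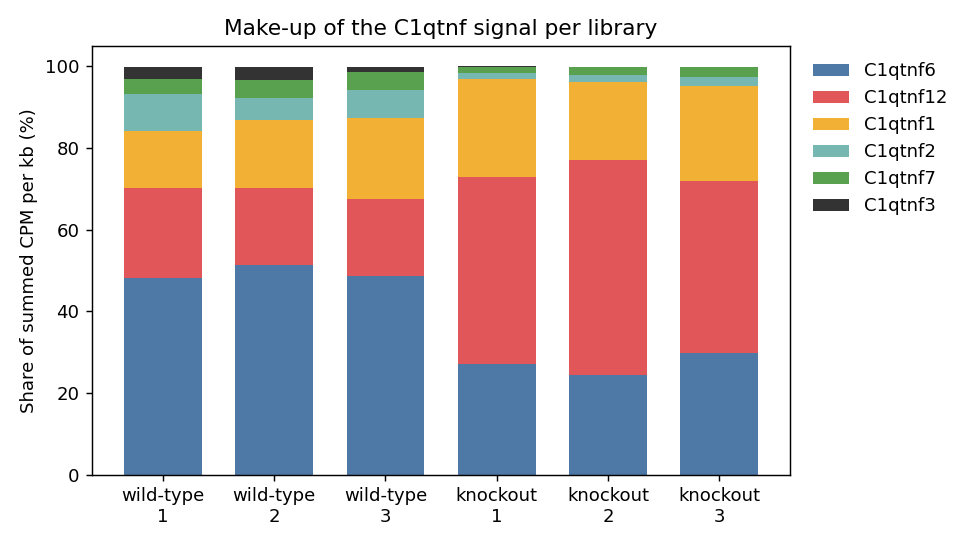
Share of the summed CPM per kb (percent) held by each C1qtnf gene in each library. C1qtnf6 (blue) holds 48.1% to 51.3% of the wild-type bars, and C1qtnf12 (red) holds 42.3% to 52.6% of the knockout bars.

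The genes with profiles most like those of the members were found by the Euclidean distance between log2(CPM + 0.1) values over the 6 libraries, each profile centred on its own mean, among 10497 tested genes with a mean of at least 5 CPM. For C1qtnf3 the nearest was Actg2, the gamma actin gene of smooth muscle, at 0.495, 1.14 and 1.02 CPM (knockout) and 12.2, 13.7 and 6.92 CPM (wild type). Like C1qtnf3 it was lowest in knockout replicate 1 and, within wild type, in replicate 3. The knockout libraries held 3, 8 and 7 reads of C1qtnf3, too few to order those replicates. The distance of Actg2 was 0.376, and that of the next gene, Enpp1, a phosphodiesterase gene that limits mineralisation, was 1.13. The matrix-associated gene Ccn2 (1.21), the smooth muscle actin gene Acta2 (1.24) and Aldh1a2, which makes retinoic acid (1.29), followed. Acta2 is also the main part of the summed myofibroblast markers given above, so these are not separate observations. Pearson's r with C1qtnf3 ran from 0.964 to 0.997 over the 6 libraries, which mostly restates the gap between genotypes that all these genes share. With 1 library left out in turn, Actg2 was among the 5 nearest in 6 of 6 cases and Enpp1 in 5, and Acta2, Ccn2 and Aldh1a2 were in 3, 3 and 2. Actins are close paralogs, so reads can be split between Actg2 and Acta2 and their counts are uncertain.

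**Figure D4:**
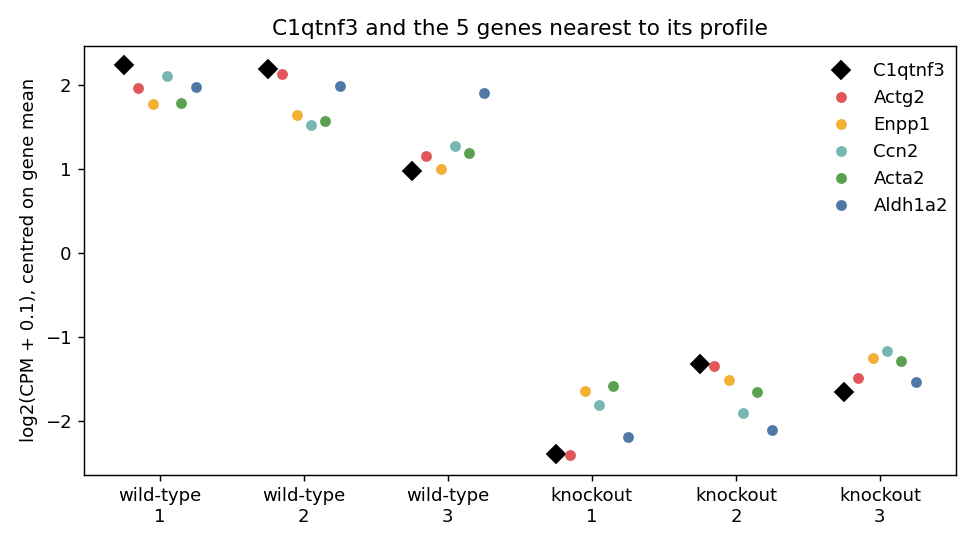
log2(CPM + 0.1), centred on each gene's own mean, in the 6 libraries for C1qtnf3 (black diamonds) and the 5 genes nearest to its profile. C1qtnf3 and Actg2 lie close together in each library, both lowest in knockout replicate 1 and lower in wild-type replicate 3 than in wild-type replicates 1 and 2. The knockout points of C1qtnf3 rest on 3, 8 and 7 reads.

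C1qtnf3 was taken whatever its mean. For the other members with a mean of at least 5 CPM, which left out C1qtnf2, the 2 nearest genes were named in the same way. Those of C1qtnf12 were Fam69b (distance 0.22) and Acsf3 (0.226), an enzyme gene of mitochondrial fatty acid synthesis. For C1qtnf1 they were Zfp770 (0.0842) and Nid1 (0.118), which encodes a basement membrane linker. For C1qtnf6 they were Wwc2 (0.0736) and Basp1 (0.0855), and for C1qtnf7 Troap (0.194) and Tmcc2 (0.202). Nearness was the sole ground for naming these genes.

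The letters GGACT, the core most often methylated to m6A, were counted in the longest protein-coding transcript of each member in GENCODE M21. C1qtnf2 had 5 in 1211 bases, a density of 4.13 per kb, above that of 99.7% of the 13148 tested protein-coding genes. C1qtnf5 had 2.2, C1qtnf1 1.58, C1qtnf3 0.855, C1qtnf6 0.833, C1qtnf12 0.76 and C1qtnf7 0.258 per kb, and the median over tested genes was 1.05 per kb. The numbers of such sites were 4 in C1qtnf1, 3 in C1qtnf5, 2 in C1qtnf3 and in C1qtnf6, and 1 in C1qtnf7 and in C1qtnf12. Whether site number or density went with the fold changes was not tested. The letters do not show whether a site was methylated.

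Other genes with a C1q domain, adiponectin included, were followed as relatives of the family that the choice had not used. This list and those below were drawn up with earlier results of these data known, so their counts are no independent check. Of 24 listed, 12 were tested, 6 rose and 3 fell by edgeR (quasi-likelihood test, Benjamini-Hochberg adjustment over all tested genes), with a median log2 fold change of 0.63 against 0.01 over all genes. Of all tested genes 22.6% were called higher and 21.7% lower. Adipoq (adiponectin) rose to 942 ± 78.4 CPM from 185 ± 55.6 (log2 fold change 2.35 ± 0.21, adjusted p = 2.6e-05). Cbln3, a cerebellin gene, rose by 0.73 on the log2 scale (adjusted p = 0.014) and Caprin2, an RNA-binding protein gene, by 0.53 (adjusted p = 0.0056). The call for Cbln3 ended without wild-type replicate 1 or 3 (adjusted p = 0.057 for both).

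The 3 subunits of complement C1q, products of macrophages, also rose. C1qa was at 17.1 ± 12.1 against 3.51 ± 0.536 CPM, C1qb at 18.7 ± 11.9 against 3.57 ± 1.44 and C1qc at 17.2 ± 11.2 against 3.71 ± 0.69, with edgeR adjusted p-values of 0.012, 0.011 and 0.0082. Knockout replicate 3 had 637 counts of C1qa, against 166 and 195 in the other knockout libraries, and was also highest in summed macrophage markers. Without that library the log2 fold changes fell from 2.29, 2.39 and 2.22 to 1.53, 1.74 and 1.54, with adjusted p-values of 5.2e-05, 0.00048 and 4.1e-05. The call for C1qa ended without wild-type replicate 1 (adjusted p = 0.065), and that for C1qb ended without knockout replicate 2 (0.052) and with a replicate block (0.11). With no low-count filter none of the 3 passed (0.072 to 0.09). Of the 6 macrophage markers 5 were called higher, against 22.6% of all tested genes. The part of these markers in the result was not tested.

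Both collagen VIII genes, which encode short-chain collagens with C1q domains, fell. Col8a1 was at 12.7 ± 2.52 against 42.3 ± 5.22 CPM (knockout against wild type) (log2 fold change -1.73, edgeR adjusted p = 4.6e-06), and Col8a2 was at 0.347 ± 0.29 against 2.8 ± 0.906 CPM (-3.02, edgeR adjusted p = 0.00055, and -3.90 without knockout replicate 2). Col10a1, a further short-chain collagen gene of the list, had 2 to 10 counts per knockout and 3 to 16 per wild-type library and was not tested. Erfe, which encodes erythroferrone, a CTRP relative that lowers hepcidin, was at 0.781 ± 0.338 against 1.63 ± 0.313 CPM. Its call (edgeR adjusted p = 0.047) ended with any library other than knockout replicate 3 left out (0.063 to 0.16) and with DESeq2 (0.066). Emilin1, Emilin2 and Mmrn2 did not pass, with adjusted p-values of 0.26, 0.31 and 0.096. The other CTRP genes listed, C1qtnf4 and C1qtnf9, had 1 to 6 and 0 to 10 counts per library and were not tested, and C1ql2, Cbln4 and Otol1 had 0 counts in every library.

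Among receptors and reported binding partners of the adiponectin and CTRP family, Adipor2 had the largest log2 fold change of those tested. Of 8 listed, 5 were tested, 1 rose and 2 fell, with a median of -0.19. Over all tested genes 22.6% were called higher and 21.7% lower, so these counts are near the background. Adipor2, a receptor of adiponectin, was at 671 ± 37.7 against 184 ± 34.7 CPM (knockout against wild type) (log2 fold change 1.87 ± 0.14, edgeR adjusted p = 1.7e-06). Adipor1 was at 141 ± 6.36 against 161 ± 9 CPM (-0.19, 95% interval -0.38 to -0.01 before adjustment, edgeR adjusted p = 0.087, and 0.035 with upper-quartile factors). Cdh13, the cadherin that binds adiponectin multimers, was at 14 ± 1.03 against 9.09 ± 3.6 CPM (0.62, adjusted p = 0.075), and it passed without wild-type replicate 3 (0.021), with DESeq2 (0.032), with limma-voom (0.015) and with no low-count filter (0.00069). With any other library left out it did not pass (0.11 to 0.17), and without wild-type replicate 1 its log2 fold change was 0.33. Scarb2 and Lamp1, lysosomal membrane proteins reported to bind CTRP3, fell by 0.35 and 0.24 on the log2 scale (adjusted p = 0.0052 and 0.049). The call for Lamp1 ended with any 1 library left out (0.051 to 0.17) and with a replicate block (0.11). Rxfp1, Adgrb3 and Mfrp were too low to test.

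Genes listed for collagen-domain processing, folding and secretion were mostly lower. Of 15 listed, 14 were tested, 2 rose and 10 fell, with a median log2 fold change of -0.50 against 0.01 over all tested genes, of which 22.6% were called higher and 21.7% lower. The prolyl hydroxylase subunit P4ha2 was at 335 ± 15.5 against 849 ± 31.6 CPM (knockout against wild type), P4ha3 at 38.4 ± 5.23 against 105 ± 6.16 and the collagen chaperone Serpinh1 at 979 ± 43.5 against 1931 ± 99.6. P4ha1, P4hb and the galactosyltransferase gene Colgalt1 fell by 0.66, 0.60 and 0.58 on the log2 scale. Furin, whose product cleaves adipolin, was at 114 ± 11.5 against 146 ± 3.1 CPM (log2 fold change -0.35, edgeR adjusted p = 0.0089). Erp44, of the same list, was at 91.1 ± 5.25 against 130 ± 8.56 CPM (log2 fold change -0.51, edgeR adjusted p = 0.00064). Moving the other way were the lysyl hydroxylase gene Plod1, at 933 ± 41.1 against 509 ± 79.7 CPM, and the oxidoreductase gene Ero1l, which aids adiponectin secretion, at 775 ± 129 against 424 ± 50.8 CPM. Both had a log2 fold change of 0.87 (edgeR adjusted p = 0.00015 and 0.00037). Gstk1, whose product also aids adiponectin multimer assembly, had 8.7 ± 0.385 against 10.1 ± 1.12 CPM. Neither it nor Ero1lb passed (edgeR adjusted p = 0.25 and 0.58).

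AMP-activated protein kinase (AMPK) is a kinase that adiponectin and several CTRPs activate in target cells. Of 11 subunits and upstream kinases listed, 10 were tested, 4 rose and 0 fell, with a median log2 fold change of 0.20. Of all tested genes 44.3% were called in either direction, near 4 of 10, with 22.6% called higher and 21.7% lower. All 4 calls in this list were higher, and whether the list differs from the background by direction was not tested. Called lower were 0 by DESeq2 and limma-voom as well, and 0 at an unadjusted p under 0.05 in edgeR. The catalytic subunit Prkaa2 was at 20.3 ± 3.02 against 7.06 ± 0.979 CPM (knockout against wild type) (log2 fold change 1.53, edgeR adjusted p = 1.6e-05), and the other catalytic subunit, Prkaa1, was at 85.2 ± 1.72 against 85.8 ± 3.29 CPM (-0.01, 95% interval -0.18 to 0.16). The regulatory subunits Prkag2 and Prkab2 rose by 1.05 and 0.49 and the upstream kinase gene Camkk2 by 0.51. Stk11, Prkab1 and Prkag1 missed the threshold, with log2 fold changes of 0.22, 0.10 and 0.04 (edgeR adjusted p = 0.061, 0.48 and 0.81). Stk11 and Cab39 passed with limma-voom (0.03 and 0.031).

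**Figure D5:**
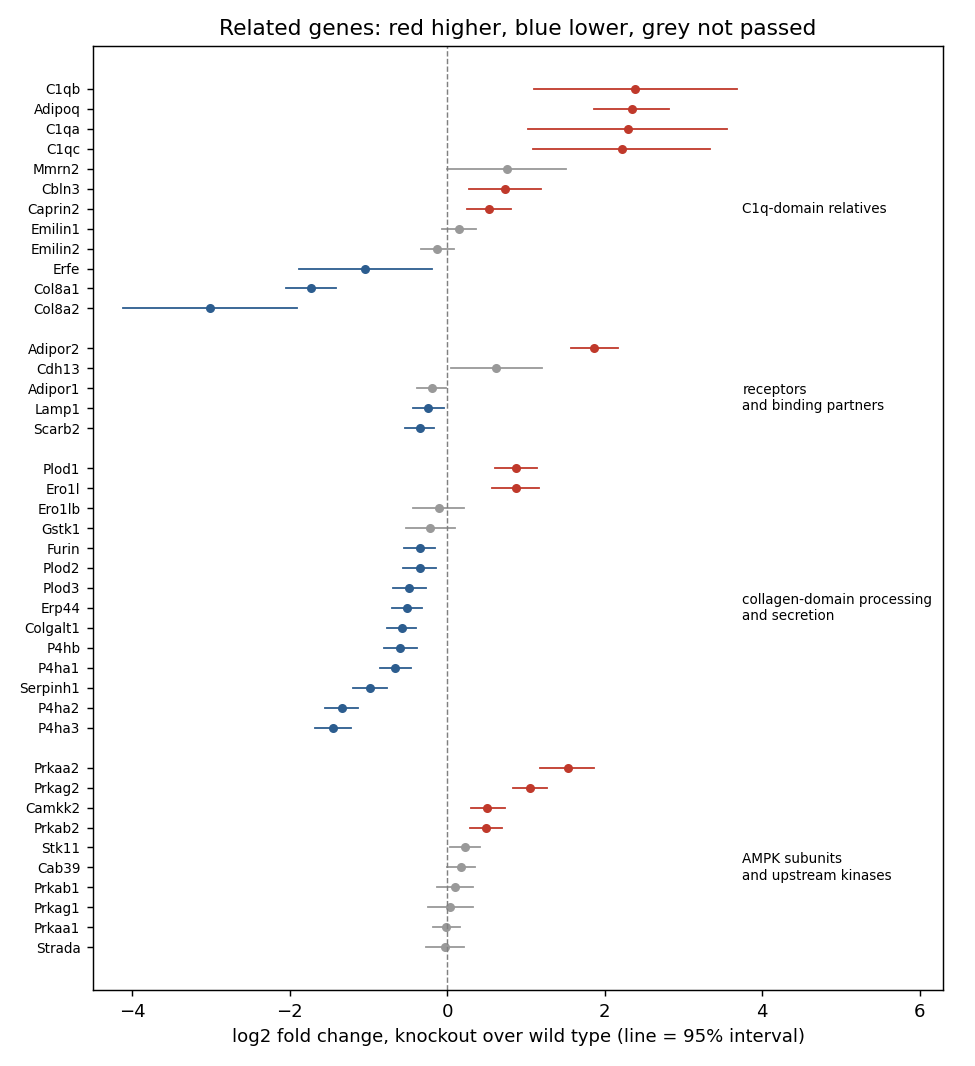
Log2 fold change (knockout over wild type) with its 95% interval for the tested genes of 4 lists, red where higher and blue where lower at an adjusted p of 0.05, grey otherwise. Adipor2 (1.87) is the receptor gene farthest from 0, and 10 of the 14 tested genes of collagen-domain processing lie left of 0 in blue.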

How the data were processed

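Values in the authors' deposited table are unnormalized counts of reads for each Ensembl gene. STAR and featureCounts with builds mm10 and GRCm38 are named, per the submitters' processing notes; their versions, the annotation, the strand setting and how multi-matching reads were handled: not given in the sources used here. Groups and replicate numbers came from sample titles. Per the labels' protocols, libraries were rRNA-depleted and read as pairs of 150 bp. Symbols and exons came from GENCODE M21 on GRCm38, which named all but 95 identifiers.

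The fit used edgeR 4.0.16 (R 4.3.3): filterByExpr (minimum count 10, total 15; 14816 of 28268 genes with a count kept), TMM, robust legacy quasi-likelihood F test, 2-sided, Benjamini-Hochberg over all tested genes at 0.05. DESeq2 1.42.0 and limma 3.58.1 were alternatives. CPM per kb used union exon length. Standard errors and 95% intervals of log2 fold changes come from that fit. The fit was tested on simulated counts with a dispersion shared by all genes and few changed genes. That setting is simpler than these data, so it does not measure the error rate of the calls here. Replicates were distinct libraries (chi-square of counts per degree of freedom 10 to 26.3).

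The members and lists were chosen with earlier results of these data known. Named were the members, their nearest genes by profile, genes overlapping a member, and per list up to 8 genes with the smallest p at 1 CPM or more, plus those behind counts of 5 or fewer. Ythdf1, Amacr, Sox9, Comp, Chad, Furin, Gstk1, Erp44, Erfe and genes listed as untested or near 0 were also named, after their values were seen. Counts of overlapping genes and close paralogs are uncertain. The labels do not say that replicates came from separate animals, so p-values measure the spread between these libraries.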

Additional observations from a re-analysis of the deposited data

How the results depend on the processing

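The log2 fold changes of the 6 C1qtnf genes kept their direction under all alternatives run. With 1 library left out they ran from -4.28 to -3.66 for C1qtnf3, -1.99 to -1.55 for C1qtnf2, -1.07 to -0.88 for C1qtnf7, -0.78 to -0.72 for C1qtnf6, 0.42 to 0.62 for C1qtnf1 and 1.22 to 1.47 for C1qtnf12. Moves beyond 1 SD between replicates were -0.80 for C1qtnf6 with upper-quartile factors, 0.69 (L1 alone) and 0.20 (L0 alone) for C1qtnf1, -4.65 (L1) and -2.53 (L0) for C1qtnf3 and 1.73 (L0) for C1qtnf12. The split by suffix and the alternatives on levels and profile likeness were chosen after seeing the data.

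Genes called numbered 6561, and 5276 to 6674 with 1 library left out. C1q-domain relatives called higher were 3 with no low-count filter. Receptors and partners called higher were 2 with DESeq2, limma-voom or no low-count filter, and 1 to 2 with a library left out. Those called lower were 1 with no low-count filter, with the suffix as a covariate and with a replicate block, and 1 with any library left out. Overlapping neighbours in level were 0 to 1 in wild type with a library left out and 2 in knockout with the longest transcript as length. Deviations from the group mean were barely correlated between libraries of the same replicate number (-0.154, 0.0195 and -0.156). Those correlations do not settle whether such libraries were prepared together. The replicate block gave 6129 calls and ended those of Erfe, Lamp1 and C1qb. The cause of these changes was not tested. Depth limits C1qtnf3 most, at 3 to 8 counts per knockout library.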
